A study of Homo sapiens with 21 samples.

Results

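The respiratory chain of the inner mitochondrial membrane was followed here through the RNA of its subunit genes. Members were the protein-coding genes whose symbols start with MT-ND, MT-CO, MT-ATP, MT-CYB, NDUFA, NDUFB, NDUFC, NDUFS, NDUFV, UQCR, COX4I, COX5, COX6, COX7, COX8 or ATP5, together with SDHA, SDHB, SDHC and SDHD, and without the NDUFAF assembly factors. The rule found 103 of the 60671 genes in the table. Of these, 90 are encoded in the nucleus and 13 in mitochondrial DNA. Complex I held 45 members, complex II 4, complex III 10, complex IV 22 and complex V 22. The rule used gene names and no measured value.

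The study asked how cells respond to endoplasmic reticulum (ER) stress, using tunicamycin, an inhibitor of N-linked glycosylation that leaves misfolded proteins in the ER. RNA with a poly(A) tail was sequenced from OCI-AML3, a human acute myeloid leukaemia line kept in RPMI medium, and from HEK293T, a transformed human embryonic kidney line kept in DMEM medium. The OCI-AML3 groups were an untreated group at 0 h and cells that received DMSO, the solvent, or tunicamycin at 1 µg/mL, each for 4 h and for 24 h. The HEK293T groups received DMSO or tunicamycin at 1 µg/mL for 24 h; a 4 h time point of this line was not analysed here. Each of the 7 groups held 3 libraries. The labels number the replicates without stating separate cultures, so p-values measure the spread between these samples, which may be technical.

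Electrons enter the chain at complex I, from NADH, and at complex II, from succinate, pass through complex III and cytochrome c to oxygen at complex IV, and the proton gradient built on the way drives ATP synthesis by complex V. The chain draws on both genomes of the cell: most subunits are made in the cytosol from nuclear mRNA and imported, whereas a few hydrophobic core subunits are transcribed and translated inside the organelle. Complex II has no mitochondrially encoded subunit. Mitochondrial mRNAs are cut from long transcripts of the whole circular genome, so their levels are set both by that transcription and by the stability of each mRNA.

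Library totals ran from 13838480 to 19961819 counts (median 16657733). Levels are given as CPM, a library's counts scaled to a common total with TMM factors, and a count of 0 allows up to 3 counts, 0.137 to 0.231 CPM, for counting error only. HSPA5, the ER chaperone BiP, which serves as a check of the treatment, was at 419 to 734 CPM in the DMSO and untreated libraries and at 3044 to 7056 CPM in the tunicamycin libraries. Of the 5 OCI-AML3 markers, PTPRC, CD33, SPI1 and CEBPA were high in every OCI-AML3 library, whereas MPO, a defining myeloid enzyme, stayed at 0.980 to 1.66 CPM. All 5 HEK293T markers (PAX2, CDH2, KRT18, NEFM and EPCAM) were detected in every HEK293T library, EPCAM at 0.381 to 1.16 CPM. In OCI-AML3, PAX2 and EPCAM had no count and NEFM was at most 0.14 CPM. CDH2 was at 1.79 to 4.36 CPM there and KRT18 at 0.285 to 2.31 CPM. In HEK293T, CEBPA was at 10.35 to 14.11 CPM and the other OCI-AML3 markers at most 0.22 CPM. Some OCI-AML3 libraries stood apart from their replicates in the balance of short transcripts (at most 1000 nt) over long ones (at least 4000 nt): DMSO 4 h replicate 1, at 0.31 on the log2 scale against -0.03 and -0.01 in the other replicates, and tunicamycin 24 h replicate 3, at -0.12 against 0.07 and 0.19. DMSO 24 h replicate 3 was apart as well, at 0.46 against 0.21 and 0.28, a gap close to that of tunicamycin 24 h replicate 3, and so was untreated replicate 3, at 0.01 against 0.19 and 0.18. The balance also moved with the groups: at 24 h every tunicamycin library of OCI-AML3 lay below every DMSO library, with a difference of the means of -0.27, while the differences were -0.07 at 4 h, 0.02 in HEK293T, 0.23 for DMSO at 24 h over 4 h and -0.59 for HEK293T over OCI-AML3 with DMSO. The members are short: the median length was 760 nt for the nuclear members tested and 784 nt for the mitochondrial members, against 3026 nt for all genes tested. Untreated replicate 2 was low in mitochondrial RNA, at 1.02% of counts against 1.65% and 1.70%. An alternative that removed trends with length and GC content from each library bears on the balance, and its values are given beside the main counts and medians of nuclear members in OCI-AML3. Below, "both libraries that stood apart" are DMSO 4 h replicate 1 and tunicamycin 24 h replicate 3, left out together in an analysis added after seeing the data that keeps DMSO 24 h replicate 3, and that library was left out on its own.

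Respiratory chain RNA made up a few percent of every library. Nuclear members summed to 1.23%, 1.29% and 1.39% of all counts in OCI-AML3 cells given DMSO for 24 h, and to 0.945%, 1.06% and 0.840% after 24 h of tunicamycin, so that all treated libraries lay below all controls. Mitochondrial members summed to 1.10%, 1.02% and 1.39% with DMSO and to 1.196%, 1.152% and 1.725% with tunicamycin, and these ranges overlapped. The log2 ratio of mitochondrial to nuclear counts was accordingly -0.15, -0.34 and -0.00 with DMSO and 0.34, 0.12 and 1.04 with tunicamycin, with every treated library above every control. The mean difference was 0.66, and 0.39 without tunicamycin replicate 3. With 3 libraries in each group, an exact permutation test cannot fall below the threshold, so no p is given for these sums.

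In HEK293T cells the shift was smaller and the libraries tighter. Nuclear members took 1.196%, 1.189% and 1.171% of counts with DMSO against 1.06%, 1.05% and 1.05% with tunicamycin, and mitochondrial members 2.30%, 2.33% and 2.33% against 2.58%, 2.51% and 2.54%. The log2 ratio rose from 0.97 ± 0.02 to 1.27 ± 0.02 (SD, n = 3). At 4 h in OCI-AML3 both shares had lower means with tunicamycin: nuclear members went from 1.408%, 1.171% and 1.198% to 1.09%, 1.15% and 1.09%, and mitochondrial members from 1.35%, 1.91% and 1.92% to 1.19%, 1.22% and 1.45%. The ratio at 4 h was -0.06, 0.70 and 0.68 with DMSO and 0.12, 0.09 and 0.40 with tunicamycin, which overlapped. Untreated cells spanned 0.33, -0.33 and 0.48, a spread as wide as the differences between treatments.

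**Figure D1:**
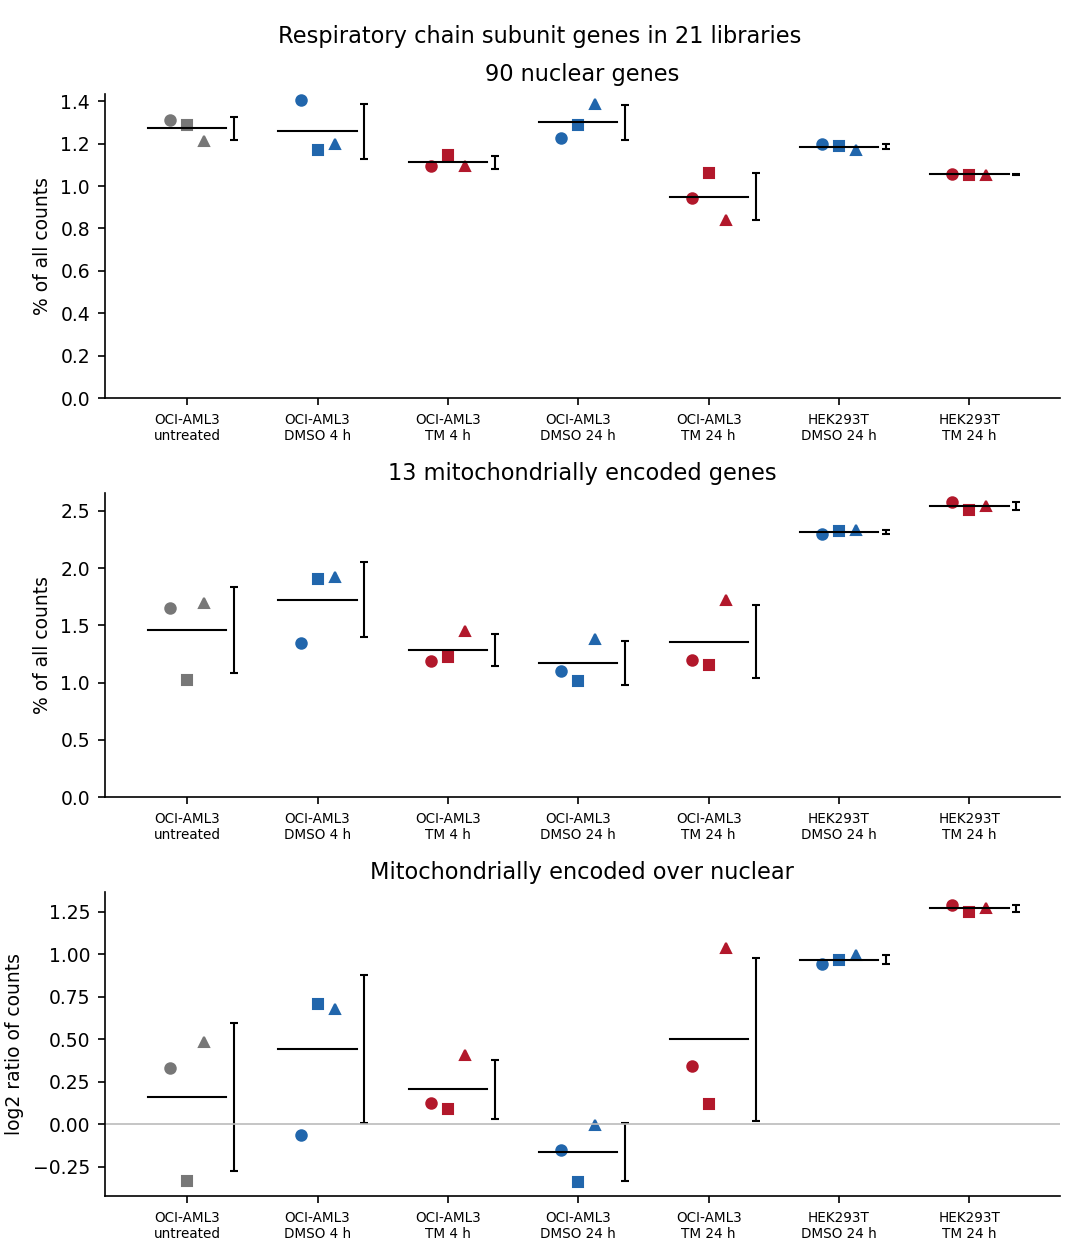
Share of all counts in nuclear members (top, percent), share in mitochondrially encoded members (middle, percent) and the log2 ratio of mitochondrial to nuclear counts (bottom) in each library of the 7 groups; markers give the replicate number, horizontal lines the mean and bars the SD. In OCI-AML3 at 24 h the tunicamycin libraries hold 0.840% to 1.06% nuclear counts, below the 1.23% to 1.39% of the DMSO libraries, while their mitochondrial shares overlap.

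After 24 h of tunicamycin, OCI-AML3 cells held less RNA of nearly every nuclear subunit gene. Of the 90 nuclear members, 82 passed the filter on low levels, and 74 of these fell and 1 rose at an adjusted p of at most 0.05 (edgeR's quasi-likelihood test, Benjamini-Hochberg adjustment over all 14012 genes tested). Across all genes tested, 27.7% fell and 23.5% rose by the same rule. The median log2 fold change was -0.56 for the nuclear members and -0.01 for all genes tested. Changes were mostly moderate: 3 members fell past a log2 fold change of -1 and 1 rose past 1, against 2.26% and 4.05% of all genes tested. In 70 of the 82 members, all 3 treated libraries lay below all 3 controls. The same count was not made over all genes, so it describes the members only. The count of members that fell was 69 without both libraries that stood apart, with a median of -0.40, 67 without DMSO 24 h replicate 3, 75 with length and GC trends removed, with a median of -0.50 beside -0.06 for all genes, and 62 of 70 after leaving out the 12 members for which RSEM assigned most values as fractions. Of all genes, 4517 were lower with length and GC trends removed and 3057 without both libraries that stood apart, in place of 3877. As these are bulk samples, fewer cells that express a gene and less RNA per cell cannot be told apart.

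Each of the complexes took part. Summed nuclear RNA went from a mean of 4177 to 2810 CPM for complex I, a difference of -32.7%, from 915 to 707 CPM for complex II (-22.8%), from 2015 to 1474 CPM for complex III (-26.8%), from 2410 to 1689 CPM for complex IV (-29.9%) and from 4951 to 3354 CPM for complex V (-32.3%). Of the nuclear members tested, 34 of 37 fell in complex I, 3 of 4 in complex II, 7 of 9 in complex III, 11 of 13 in complex IV and 19 of 19 in complex V. The median log2 fold changes lay between -0.38 in complex II and -0.62 in complex V. The plot of fold changes by complex shows the nuclear members of OCI-AML3 at 24 h shifted as a block, with the mitochondrial members of the same complexes around 0.

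**Figure D2:**
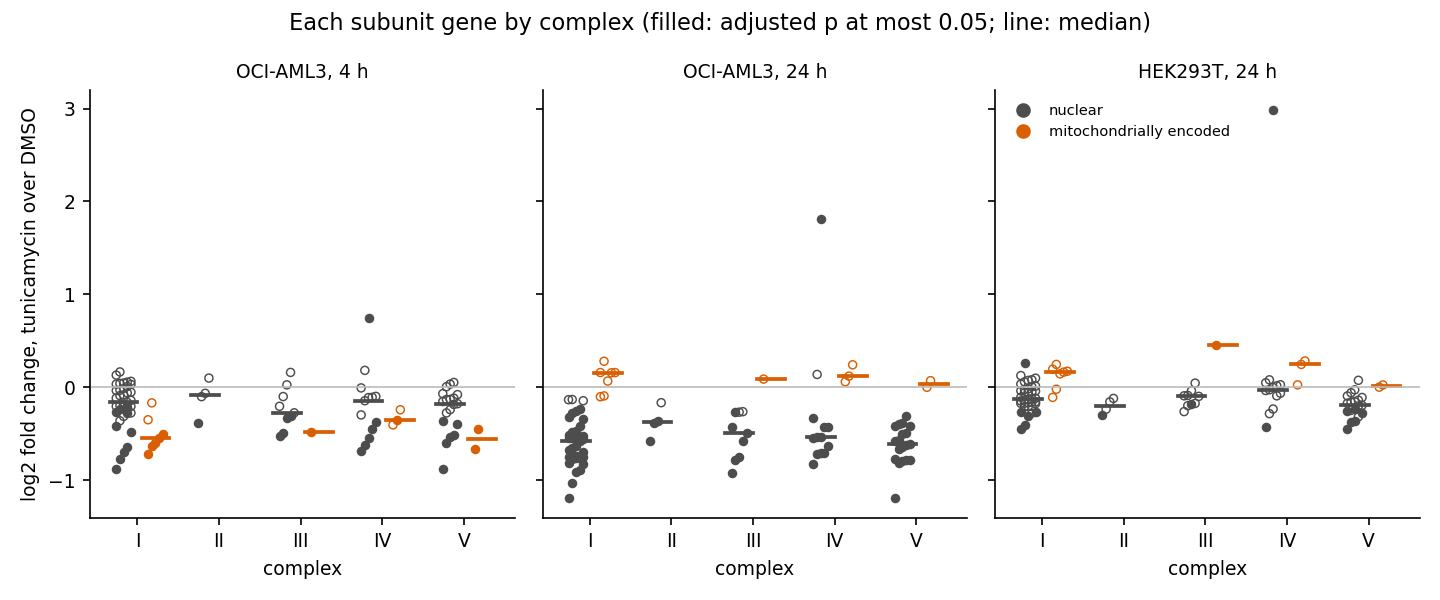
Log2 fold change, tunicamycin over DMSO, of each member tested (1 point a gene), by complex, for OCI-AML3 at 4 h, OCI-AML3 at 24 h and HEK293T at 24 h; grey points are nuclear and orange points mitochondrially encoded, filled points have an adjusted p of at most 0.05 and lines mark medians. Nuclear medians at 24 h in OCI-AML3 run from -0.38 to -0.62, while no mitochondrial member is filled there.

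In complex I, the largest falls at 24 h were of small accessory subunits. NDUFS6, a zinc-binding subunit of the electron-accepting arm (chr5:1801407-1816048, + strand), measured 144, 161 and 174 CPM with DMSO and 78.3, 85.7 and 46.0 CPM with tunicamycin. The groups were far apart, replicate 3 was the lowest treated library, and the log2 fold change was -1.198 (SE 0.14, adjusted p = 5.1e-07). NDUFS5, an accessory subunit with twin disulphide bonds, went from 181, 212 and 216 CPM to 104, 114 and 79.4 CPM (log2 fold change -1.03, SE 0.10, adjusted p = 2.9e-08). NDUFA7 fell by 0.92 on the log2 scale (SE 0.14, adjusted p = 9.1e-06), and RSEM gave it fractional values in 14 of the 21 libraries. The subunits that carry the flavin and the iron-sulphur clusters fell as well: NDUFV1, which binds FMN and NADH, went from 175, 190 and 195 CPM to 140, 136 and 110 CPM, and NDUFS7, which holds the last cluster before ubiquinone, from 99.3, 104 and 119 CPM to 64.65, 65.01 and 44.03 CPM. Neither gene's groups overlapped. Members of complex I that did not pass the test were NDUFA5, NDUFB5 and NDUFV3, at log2 fold changes of -0.15, -0.14 and -0.13.

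Complex II, which doubles as succinate dehydrogenase of the citric acid cycle, had the smallest median fall of the complexes. SDHA, the flavoprotein, measured 508, 498 and 479 CPM with DMSO and 412, 373 and 349 CPM with tunicamycin (log2 fold change -0.39, SE 0.06, adjusted p = 1.6e-05). Its values were fractional in 20 of the 21 libraries. SDHB, the iron-sulphur subunit, went from 104, 110 and 121 CPM to 75.1, 87.2 and 61.2 CPM (log2 fold change -0.58, SE 0.09, adjusted p = 2.4e-05). SDHC, a membrane anchor, went from 174, 189 and 180 CPM to 141, 156 and 124 CPM (log2 fold change -0.37, SE 0.09, adjusted p = 0.0011). In these 3 genes every treated library lay below every control. SDHD, the other membrane anchor, overlapped between groups, at 121, 114 and 149 CPM with DMSO and 105, 122 and 115 CPM with tunicamycin (log2 fold change -0.17, adjusted p = 0.15).

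In complex III, UQCRQ, a small subunit next to cytochrome b, measured 154, 180 and 210 CPM with DMSO and 96.6, 120 and 69.9 CPM with tunicamycin (log2 fold change -0.93, SE 0.14, adjusted p = 1.1e-05). UQCR10 and UQCR11, small subunits as well, fell by 0.78 (SE 0.11, adjusted p = 2.5e-06) and 0.76 (SE 0.17, adjusted p = 8.0e-04) on the log2 scale. RSEM gave UQCR11 fractional values in 19 of the 21 libraries. UQCRH, the hinge protein that helps cytochrome c dock, was an abundant exception at this time. It measured 473, 478 and 607 CPM with DMSO and 423, 510 and 361 CPM with tunicamycin, and these overlapped (log2 fold change -0.27, adjusted p = 0.066). For UQCRHL, its near-identical copy, the log2 fold change was -0.26 (adjusted p = 0.099), and neither gene had fractional values in any library.

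In complex IV, COX5B, a nuclear subunit near the matrix face, went from 174, 184 and 219 CPM to 114, 153 and 86.5 CPM, without overlap (log2 fold change -0.71, adjusted p = 6.2e-04). COX7A2 went from 204, 231 and 264 CPM to 125, 175 and 96.2 CPM (log2 fold change -0.83, SE 0.15, adjusted p = 7.9e-05), and COX6A1 fell by 0.72 on the log2 scale (SE 0.14, adjusted p = 1.4e-04). COX7A2L, which helps join complexes III and IV, did not pass the test, at a log2 fold change of 0.14 (adjusted p = 0.39). NDUFA4, named for complex I but a subunit of complex IV, and its paralogue NDUFA4L2 went in opposite directions. NDUFA4 measured 99.3, 122 and 138 CPM with DMSO and 66.8, 93.2 and 59.7 CPM with tunicamycin (log2 fold change -0.71, SE 0.14, adjusted p = 2.1e-04). NDUFA4L2, known as a hypoxia-induced gene, measured 1.94, 2.07 and 1.54 CPM with DMSO and 7.10, 7.60 and 5.06 CPM with tunicamycin (log2 fold change 1.82, SE 0.24, adjusted p = 2.2e-06). It was the 1 nuclear member that rose at 24 h, and its treated libraries all lay above its controls.

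All 19 nuclear members of complex V that were tested fell. ATP5MF, a subunit of the membrane part (chr7:99448475-99466186, - strand), measured 393, 425 and 470 CPM with DMSO and 185, 247 and 133 CPM with tunicamycin (log2 fold change -1.19, SE 0.15, adjusted p = 8.6e-07). It overlaps another gene on its strand, so some of its reads may belong there. ATP5MC3, 1 of 3 genes for the proton-carrying c subunit, went from 255, 273 and 279 CPM to 154, 182 and 123 CPM (log2 fold change -0.82, SE 0.11, adjusted p = 2.1e-06). The other c subunit genes fell as well, ATP5MC1 by 0.78 (SE 0.12, adjusted p = 1.9e-05) and ATP5MC2 by 0.42 (SE 0.11, adjusted p = 0.0023) on the log2 scale. ATP5ME, which helps ATP synthase form dimers, fell by 0.79 (SE 0.14, adjusted p = 6.5e-05).

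**Figure D3:**
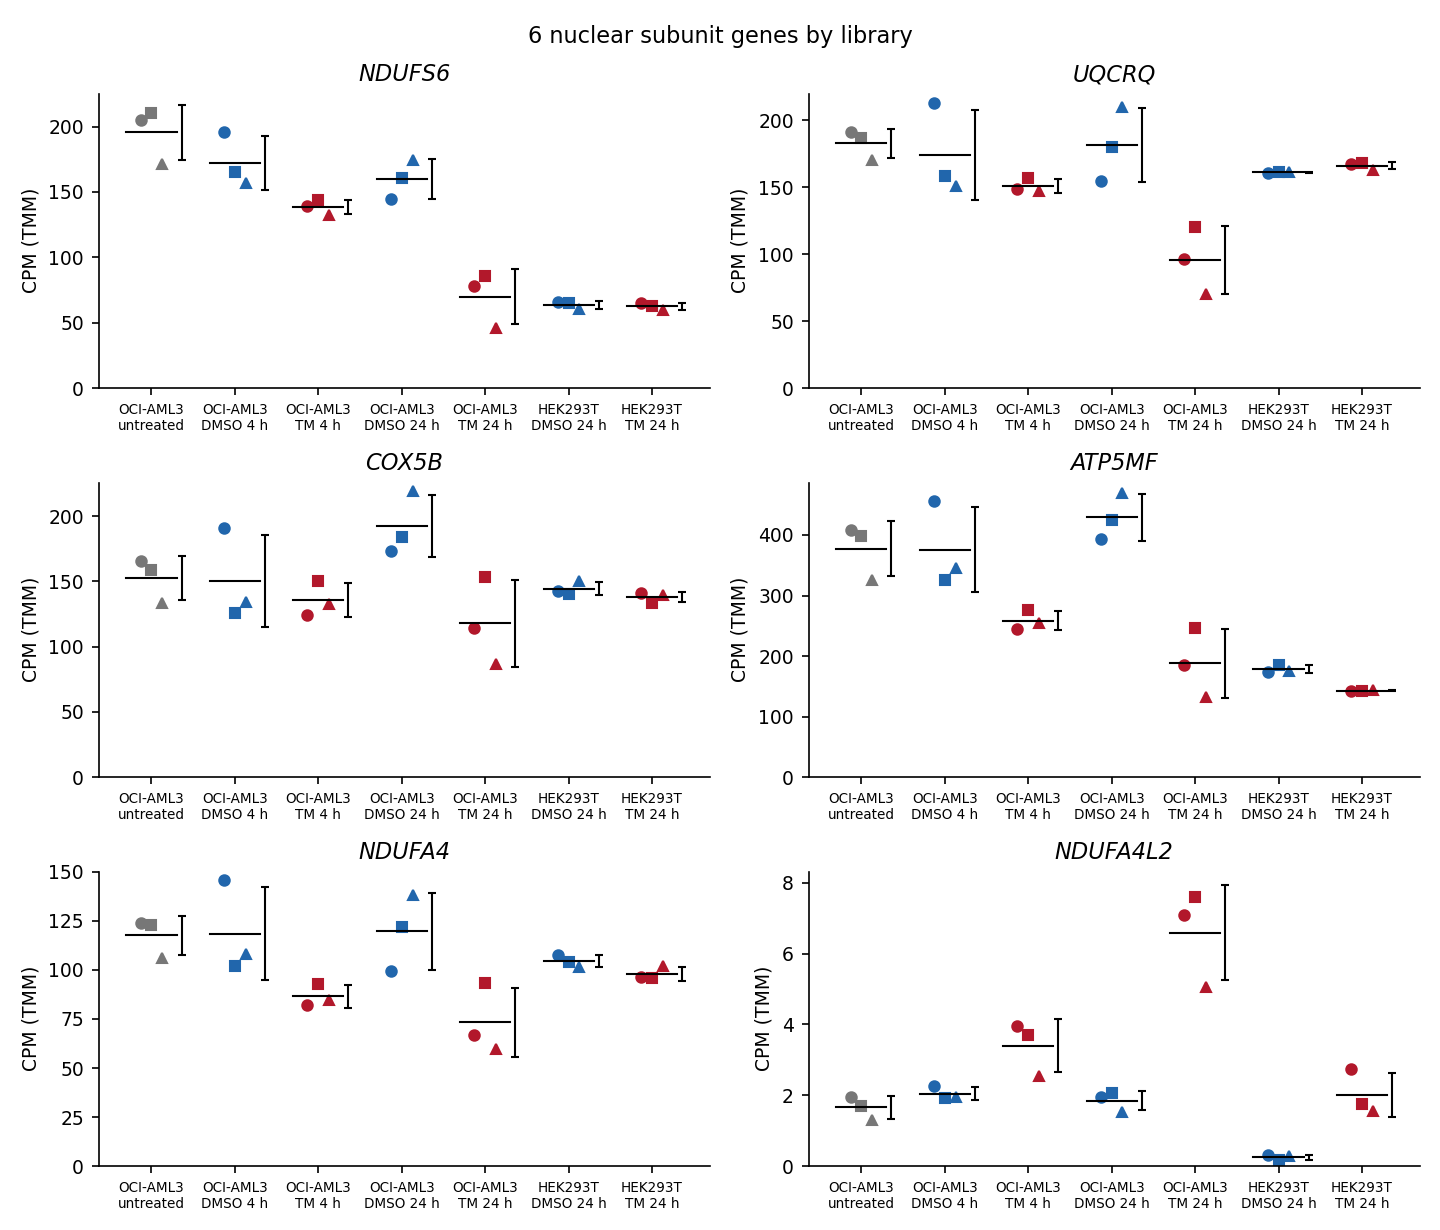
Level in CPM of NDUFS6, UQCRQ, COX5B, ATP5MF, NDUFA4 and NDUFA4L2 in each library of the 7 groups (1 panel a gene, markers by replicate number). In OCI-AML3 at 24 h the first 5 genes are lower in every tunicamycin library than in every DMSO library, and NDUFA4L2 is higher, whereas NDUFS6 in HEK293T sits at 59.8 to 65.5 CPM in all libraries.

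Isoform genes known for heart, skeletal muscle, lung or testis were nearly silent. COX4I2, COX6A2 and COX7B2 had 0 counts over all 21 libraries, COX7A1 had 1, ATP5MGL 2, COX8C 6 and COX6B2 63, and these genes with NDUFC2-KCTD14 (54 counts) were the 8 nuclear members not tested. Their widely expressed partners carried the signal and fell at 24 h in OCI-AML3: COX4I1 by 0.43 (adjusted p = 0.003), COX6B1 by 0.54 (adjusted p = 3.7e-04), COX7B by 0.55 (adjusted p = 0.0025) and COX8A by 0.43 (adjusted p = 0.0057) on the log2 scale. The COX8A call was lost in 3 of 17 alternatives and the COX4I1 call in 1, while COX6B1 and COX7B kept theirs.

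Promoters of nuclear respiratory genes are known for sites of NRF1, GABP (an ETS factor) and YY1, and the letters of these motifs were searched in the RefSeq promoter windows (GRCh38.p14, 250 bases before to 50 after each start). The search was exact and covered both strands, with GCATGCGC for NRF1, CCGGAAGT for GABP and AAGATGGCG for YY1, and 71 of the 90 nuclear members had a window. GCATGCGC stood in 13 of these 71 windows (18.3%), against 3.27% of all 27305 promoters and 5.79% of the promoters of tested genes. CCGGAAGT stood in 10 (14.1% against 4.44% and 9.22%) and AAGATGGCG in 8 (11.3% against 1.85% and 4.11%). TGACGTCA, the cAMP response element, was searched too and stood in 5 (7.04% against 1.98% and 3.36%). Any of the first 3 stood in 25 windows (35.2%), against 8.90% of all promoters and 17.6% of the promoters of tested genes. The stretches below run from 20 bases before the first match to the base before the start, with matched letters in capitals. They are shown because NDUFS6 fell furthest, COX5B holds motifs of different factors, COX8A holds a single match, and UQCRH holds a match and did not pass the test.
NDUFS6, chr5:1801341-1801406, + strand: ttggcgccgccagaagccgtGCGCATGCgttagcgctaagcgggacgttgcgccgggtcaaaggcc
COX5B, chr2:97645906-97646061, + strand: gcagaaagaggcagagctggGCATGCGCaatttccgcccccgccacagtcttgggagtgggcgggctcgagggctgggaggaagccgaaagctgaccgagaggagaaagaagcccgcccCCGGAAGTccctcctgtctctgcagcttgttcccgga
COX8A, chr11:63974581-63974619, + strand: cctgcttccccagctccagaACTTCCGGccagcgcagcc
UQCRH, chr1:46303631-46303697, + strand: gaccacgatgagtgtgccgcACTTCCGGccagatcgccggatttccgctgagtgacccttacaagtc
NDUFS6 carried the NRF1 letters on the minus strand, first base 46 before the start. COX5B carried them on the plus strand, 136 before the start, with the GABP letters at 37 before it and again across the start, where the match is not shown. COX8A and UQCRH carried the GABP letters on the minus strand. Members with any of the 3 motifs had a median log2 fold change of -0.64 (n = 25) at 24 h in OCI-AML3 and members without had -0.54 (n = 41), and the medians were -0.11 and -0.20 at 4 h and -0.05 and -0.16 in HEK293T. A match of letters is a description of the window and not evidence of binding.

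The 13 mitochondrially encoded members did not follow the nuclear ones at 24 h. In OCI-AML3 their log2 fold changes ran from -0.10 (MT-ND4) to 0.28 (MT-ND1), with a median of 0.09. By edgeR none passed the adjusted threshold and 0 had an unadjusted p under 0.05, and every alternative analysis also called 0 lower. Some alternatives called single genes higher: MT-ND1 and MT-CO1 with no filter beyond 1 count, and MT-ND3 without TMM scaling, without DMSO 24 h replicate 3 and without both libraries that stood apart. MT-CO1, the catalytic core of complex IV, measured 3253, 2819 and 4281 CPM with DMSO and 3709, 3390 and 5131 CPM with tunicamycin, which overlapped (log2 fold change 0.24, SE 0.19, adjusted p = 0.3). MT-CYB, the only mitochondrially encoded subunit of complex III, measured 469, 467 and 543 CPM with DMSO and 489, 462 and 619 CPM with tunicamycin (log2 fold change 0.09, SE 0.15, adjusted p = 0.65). In both genes replicate 3 was the highest library of its group, as it was in the summed mitochondrial share. Without both libraries that stood apart, the median was -0.02, and it ranged from -0.02 to 0.27 when each library was left out, lowest without tunicamycin replicate 3 and highest without DMSO replicate 3. MT-ND1, MT-ND3, MT-CO1 and MT-CO2 stayed above 0 in every alternative, and the other 9 changed sign in at least 1. Standard errors ran from 0.107 to 0.225, and changes of single mitochondrial genes larger than their standard error could still miss the threshold. MT-ND1 did so, at 0.28 (SE 0.18, adjusted p = 0.19). RSEM gave MT-ND2, MT-CO1 and MT-ATP6 fractional values in all 21 libraries, as it does where reads match more than 1 gene.

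At 4 h the mitochondrial members were lower with tunicamycin. All 13 had log2 fold changes below 0, with a median of -0.49, and 9 fell by the adjusted p, against 18.9% of all genes tested that fell and 18.5% that rose. The complex I genes MT-ND5, MT-ND4L, MT-ND6, MT-ND4 and MT-ND1 fell by 0.72 (SE 0.22, adjusted p = 0.013), 0.63 (adjusted p = 0.027), 0.61 (adjusted p = 0.023), 0.54 (adjusted p = 0.043) and 0.50 (adjusted p = 0.028) on the log2 scale. MT-ND5 measured 445, 1057 and 906 CPM with DMSO and 427, 451 and 585 CPM with tunicamycin, so DMSO replicate 1 lay inside the treated range. MT-CYB fell by 0.49 (adjusted p = 0.013), MT-CO2 by 0.35 (adjusted p = 0.047), MT-ATP6 by 0.45 (adjusted p = 0.04) and MT-ATP8 by 0.67 (adjusted p = 0.018). MT-CO1, MT-CO3, MT-ND2 and MT-ND3 did not pass the test, at -0.41, -0.24, -0.35 and -0.17.

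The calls at 4 h rested on single libraries, while the median stayed between -0.64 and -0.35 when each was left out. The count of 9 was 0 without DMSO replicate 2, 0 without DMSO replicate 3, 0 without tunicamycin replicate 1 and 1 without tunicamycin replicate 2, but 10 without DMSO replicate 1 and 11 without both libraries that stood apart. With untreated cells in place of DMSO as the control, an analysis added after seeing the data, the count was 0 and the median -0.21; the untreated group holds a library apart in the balance and a library low in mitochondrial RNA. In 4 of the 13 genes all treated libraries lay below all controls, a count that was not made over all genes.

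Mitochondrial genes lie head to tail, and some overlap. MT-ATP8 (chrM:8366-8572) and MT-ATP6 (chrM:8527-9207) share 46 bases read in different frames, shown here because a read inside them cannot be given to either gene alone; the capitals mark the start codon of MT-ATP6.
MT-ATP8 and MT-ATP6, chrM:8527-8572, + strand: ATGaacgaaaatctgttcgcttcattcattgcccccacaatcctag
The shared stretch is a large part of the 207 bases of MT-ATP8, whose level of 14.3 to 22.3 CPM with DMSO at 24 h in OCI-AML3 was the lowest of the mitochondrial members. MT-ND4L and MT-ND4 share 7 bases. Copies of mitochondrial DNA in the nuclear genome also take reads: the pseudogene MTATP6P1 held 58.2 to 85.6 CPM in the same libraries, against 850 to 1170 CPM for MT-ATP6.

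**Figure D4:**
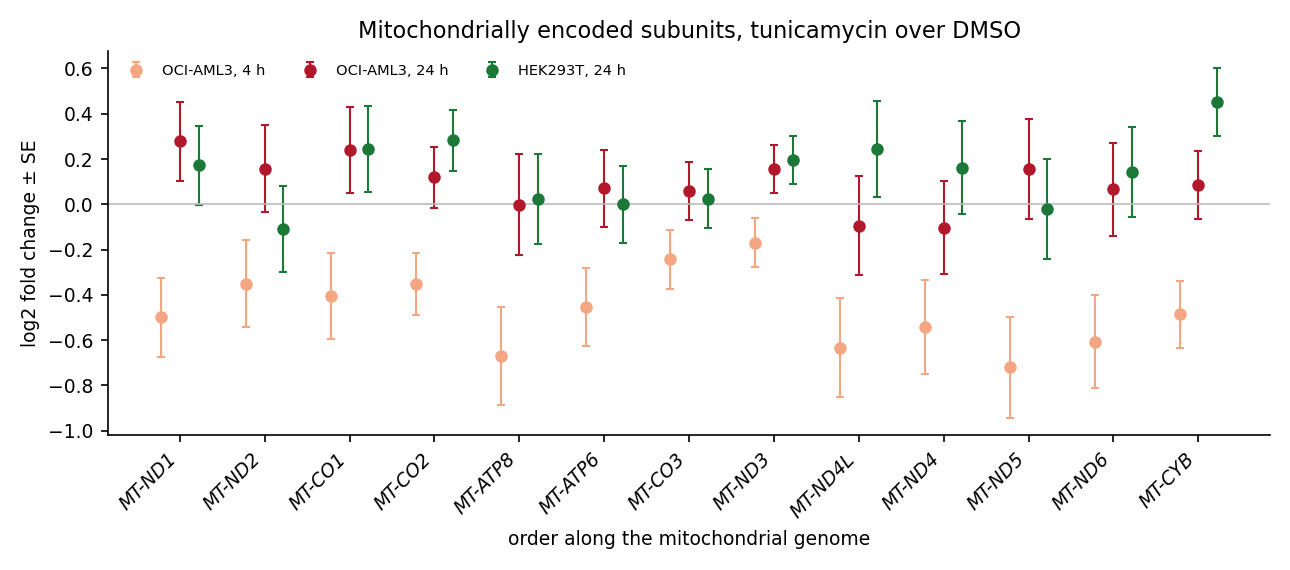
Log2 fold change with its standard error, tunicamycin over DMSO, of the 13 mitochondrially encoded members in genome order for OCI-AML3 at 4 h, OCI-AML3 at 24 h and HEK293T at 24 h. All 13 are below 0 at 4 h, values at 24 h in OCI-AML3 lie between -0.10 and 0.28, and MT-CYB in HEK293T stands at 0.45.

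Nuclear members moved less at 4 h than at 24 h. By the adjusted p, 26 of 82 fell and 1 rose, where 18.9% of all genes fell and 18.5% rose. The median was -0.17, and no member was past a log2 fold change of 1 in either direction, where 3.45% of all genes rose and 1.47% fell that far. Of the 26, 22 also fell at 24 h. ATP5MC1 measured 107, 82.4 and 83.7 CPM with DMSO and 51.0, 51.4 and 45.8 CPM with tunicamycin, without overlap (log2 fold change -0.88, SE 0.12, adjusted p = 4.4e-06). NDUFB3, a subunit of the membrane arm of complex I, went from 48.7, 35.5 and 41.3 CPM to 23.1, 23.4 and 21.7 CPM (log2 fold change -0.88, SE 0.11, adjusted p = 1.9e-06). NDUFA2 fell by 0.77 (adjusted p = 1.2e-04), NDUFS5 by 0.69 (adjusted p = 8.6e-06), COX6B1 by 0.68 (adjusted p = 4.6e-05), COX7B by 0.62 (adjusted p = 0.0013), UQCR10 by 0.53 (adjusted p = 3.5e-04) and SDHC by 0.39 (adjusted p = 9.8e-04) on the log2 scale. NDUFA4L2 was again the 1 member that rose, from 2.26, 1.92 and 1.95 CPM to 3.97, 3.70 and 2.54 CPM (log2 fold change 0.74, SE 0.25, adjusted p = 0.021), and this call was lost in 4 of 18 alternatives, each without 1 library, with adjusted p up to 0.091. The libraries were DMSO replicates 2 and 3 and tunicamycin replicates 1 and 2. UQCRH and UQCRHL, which did not pass at 24 h, fell at 4 h by 0.33 (adjusted p = 0.036) and 0.49 (adjusted p = 0.0062), and these calls were lost in 5 and 1 of 18 alternatives. The count of 26 was 35 with length and GC trends removed, with a median of -0.16, and it was 14 without DMSO replicate 1, 17 without tunicamycin replicate 3 and 17 without both libraries that stood apart. With length and GC trends removed, 3246 of all genes were lower in place of 2652. The median was -0.03 without DMSO replicate 1, and also without both libraries that stood apart, and between -0.24 and -0.15 without each other library.

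The change between 4 h and 24 h was tested as an interaction, the tunicamycin effect at 24 h minus that at 4 h. It was lower for 36 nuclear members and higher for 1, where 20.3% of all genes were lower and 15.1% higher. UQCRC1, a core protein of complex III, went from a log2 fold change of 0.16 at 4 h to -0.58 at 24 h (interaction -0.74, SE 0.11, adjusted p = 4.1e-05). NDUFS7 went from 0.13 to -0.89 (interaction -1.02, SE 0.17, adjusted p = 7.6e-05), and ATP5F1D, the delta subunit of the ATP synthase rotor, from 0.05 to -0.78 (interaction -0.83, SE 0.15, adjusted p = 2.3e-04). SDHB and NDUFV1 had interactions of -0.68 and -0.58 (adjusted p = 3.9e-04 and 5.5e-04). These genes were near or above 0 at 4 h, unlike ATP5MC1 and NDUFB3, which were already low. For the mitochondrial members the interaction was in the other direction, higher for 3 of 13: MT-ND5 (0.87, adjusted p = 0.034), MT-ND1 (0.78, adjusted p = 0.018) and MT-CYB (0.57, adjusted p = 0.039). That count was 11 without DMSO 4 h replicate 1, 5 without both libraries that stood apart, 0 without DMSO 4 h replicate 2 and 1 to 10 without each other library. The nuclear count of 36 was 20 with the compared groups alone, where 1937 of all genes were lower in place of 2842. It was 55 without DMSO 4 h replicate 1, 54 without tunicamycin 24 h replicate 2 and 25 to 34 without each other library.

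In HEK293T cells the nuclear members changed less. By the adjusted p, 13 of 82 nuclear members fell and 2 rose, with a median log2 fold change of -0.13, against 13.1% of all genes that fell and 12.6% that rose. In this main fit the share of members that fell was near the background. The 1 member past a log2 fold change of 1 was NDUFA4L2, where 1.58% of all genes rose and 0.550% fell that far. The libraries of this line varied less than those of OCI-AML3, and a fit of the HEK293T groups alone called 38 nuclear members lower and 8 mitochondrial members higher, and in that fit 2856 of the 14012 genes were lower and 2927 higher. The nuclear count was 24 without TMM scaling, where 2264 of the 14012 genes were lower. It was 27 with length and GC trends removed, where 2489 were, so in these settings the share lay further above the background. Leaving out any of the 6 HEK293T libraries left 5 to 7 nuclear members called lower.

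By complex, the nuclear members that fell in HEK293T were 4 of 37 in complex I and 1 of 4 in complex II. They were 1 of 9 in complex III, 1 of 13 in complex IV and 6 of 19 in complex V. NDUFB3 measured 63.3, 61.8 and 67.5 CPM with DMSO and 45.1, 42.9 and 53.3 CPM with tunicamycin (log2 fold change -0.45, SE 0.11, adjusted p = 0.0029). ATP5MC1 went from 119, 117 and 109 CPM to 84.3, 84.1 and 83.8 CPM (log2 fold change -0.45, SE 0.12, adjusted p = 0.0061). COX6B1 fell by 0.43 (adjusted p = 0.0066), NDUFAB1, the mitochondrial acyl carrier protein, by 0.40 (adjusted p = 0.024), ATP5MC3 by 0.38 (adjusted p = 0.012), SDHC by 0.30 (adjusted p = 0.013) and UQCRC2 by 0.19 (adjusted p = 0.031) on the log2 scale. ATP5MC1, ATP5MC3, COX6B1, NDUFB3 and SDHC fell in all 3 comparisons of tunicamycin with DMSO. NDUFV3 rose by 0.26 (SE 0.08, adjusted p = 0.015). The calls of UQCRC2, NDUFAB1 and NDUFV3 were lost in 7, 4 and 3 of 16 alternatives. NDUFA4L2 went from 0.308, 0.161 and 0.274 CPM, which is 3 to 6 counts a library, to 2.73, 1.74 and 1.54 CPM, or 23 to 54 counts (log2 fold change 2.99, SE 0.35, adjusted p = 1.0e-06). The rises of this low gene at 24 h in both lines kept their call in every alternative run, unlike that at 4 h.

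Of the mitochondrial members, MT-CYB was the exception in HEK293T. It measured 1330, 1227 and 1256 CPM with DMSO and 1744, 1742 and 1730 CPM with tunicamycin, and was the 1 mitochondrial member that rose (log2 fold change 0.45, SE 0.15, adjusted p = 0.028). The call was lost when any HEK293T library other than DMSO replicate 1 was left out, at log2 fold changes of 0.43 to 0.46, and without TMM scaling, at 0.42. The other 12 lay between -0.11 (MT-ND2) and 0.28 (MT-CO2), and the median of all 13 was 0.16.

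The lines were compared by the interaction of treatment with line at 24 h. Of the 82 nuclear members, 47 had a higher log2 fold change in HEK293T than in OCI-AML3 and 0 a lower one, where 15.9% of all genes were higher and 10.9% lower. NDUFS6 had the largest named difference, 1.18 (SE 0.20, adjusted p = 1.9e-04): it measured 65.5, 64.8 and 60.1 CPM with DMSO and 65.2, 62.9 and 59.8 CPM with tunicamycin in HEK293T, which overlapped, whereas it fell in OCI-AML3. NDUFA7, NDUFS7, NDUFS5 and NDUFA6 differed by 0.97, 0.87, 0.76 and 0.71 (adjusted p = 6.5e-04, 6.0e-04, 4.4e-04 and 4.9e-04). The count of 47 was between 19 and 54 when each library was left out, 19 without OCI-AML3 DMSO 24 h replicate 3, 31 without its replicate 2, 20 without OCI-AML3 tunicamycin 24 h replicate 3, 29, 26 and 20 without HEK293T DMSO replicates 1, 2 and 3, and 33 without both libraries that stood apart. None of the mitochondrial members differed between lines by this test in edgeR, 0 of 13 also at an unadjusted p under 0.05, with a median interaction of 0.03. The medium and the mode of growth differ with the line and cannot be told apart from it.

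The solvent controls changed with time as well. After 4 h of DMSO, no gene of the 14012 tested differed from untreated cells by the adjusted p (0% of genes higher and 0% lower by edgeR), so no member did. Of the 82 nuclear and 13 mitochondrial members tested, 4 and 1 had an unadjusted p under 0.05. The share of all genes under that threshold was not counted, so these counts are not read as a result. Between 4 h and 24 h of DMSO, 15 nuclear members rose and 0 fell, and 7 mitochondrial members fell and 0 rose, where 21% of all genes rose and 21.6% fell. Median log2 fold changes were 0.15 and -0.49. The nuclear median was 0.04 without TMM scaling, where the median of all genes was -0.14, 0.04 with length and GC trends removed, where that of all genes was 0.01, and 0.06 to 0.25 when each library was left out. The mitochondrial median was -0.22 with untreated cells in place of DMSO at 4 h. COX4I1 went from 486, 366 and 381 CPM to 522, 547 and 609 CPM. Without both libraries that stood apart the counts were 48 and 11, without DMSO 4 h replicate 1 they were 36 and 11, and without DMSO 4 h replicate 2 they were 5 and 3. Without DMSO 4 h replicate 3 they were 5 and 4, without DMSO 24 h replicate 2 they were 10 and 3, without DMSO 24 h replicate 1 they were 19 and 4, and without DMSO 24 h replicate 3 they were 7 and 8. The comparisons at each time share these DMSO libraries with the tunicamycin comparisons, so the values are given side by side and no overlap between them is read as a result.

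The lines also differed without tunicamycin. With DMSO for 24 h, 14 nuclear members were higher in HEK293T and 44 lower, where 40.5% of all genes were higher and 42.2% lower; past a log2 fold change of 1, 1 member was higher and 12 lower, against 20.3% and 24.9% of genes. The nuclear median was -0.26. Without TMM scaling 27 members were lower, the nuclear median was 0.09, all genes' median moved by 0.34, and 7303 genes were higher and 4646 lower in place of 5676 and 5914; the nuclear median was below that of all genes in both cases. With length and GC trends removed it was -0.155 beside -0.136 for all genes, so most of that gap was gone, and with no filter beyond 1 count it was -0.44. Mitochondrial members were higher in HEK293T, 11 of 13 by the adjusted p, 6 of them past a log2 fold change of 1, with a median of 1.00, or 1.34 without TMM scaling.

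The mitochondrial excess in HEK293T was uneven among genes. MT-ND5 measured 1494, 1768 and 1601 CPM in HEK293T and 450, 446 and 493 CPM in OCI-AML3 (log2 fold change 1.81, SE 0.23, adjusted p = 1.5e-07), and MT-CYB was higher by 1.37 (SE 0.15, adjusted p = 1.9e-08). MT-ND6, the 1 member on the - strand (chrM:14149-14673), was higher by 1.23, MT-ND2 by 1.13, MT-ND4L and MT-ATP6 by 1.05 and MT-ND4 by 1.00. MT-CO1, MT-ND1 and MT-ND3 were higher by 0.70, 0.51 and 0.35, and the MT-ND3 call was lost in 2 of 16 alternatives. MT-CO2 and MT-CO3 did not pass the test, both at 0.10 (adjusted p = 0.48), and both ranges overlapped those of OCI-AML3. They were called higher in 2 and 3 of 16 alternatives, and all 13 members were called higher without TMM scaling.

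Among nuclear members, SDHA was far lower in HEK293T. It measured 175, 165 and 162 CPM in HEK293T against 508, 498 and 479 CPM in OCI-AML3 (log2 fold change -1.56, SE 0.06, adjusted p = 1.5e-16). RSEM gave SDHA fractional values in 20 of the 21 libraries, as it does where reads match more than 1 gene. NDUFS6, NDUFB5, ATP5MF, COX7A2, ATP5F1D, UQCRH and COX4I1 were lower by log2 fold changes of -1.33, -1.29, -1.27, -1.12, -1.10, -1.06 and -1.04. NDUFA4L2 was lower as well, at -2.86 (SE 0.37, adjusted p = 2.0e-07). ATP5IF1, which inhibits the reverse, ATP-consuming reaction of complex V, was the 1 member past 1 in the other direction, at 232, 226 and 218 CPM against 102, 112 and 120 CPM (log2 fold change 1.02, SE 0.09, adjusted p = 4.8e-10). NDUFB6, NDUFB3, COX7B, ATP5MC1 and NDUFA1 were higher by 0.81, 0.73, 0.63, 0.60 and 0.59.

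**Figure D5:**
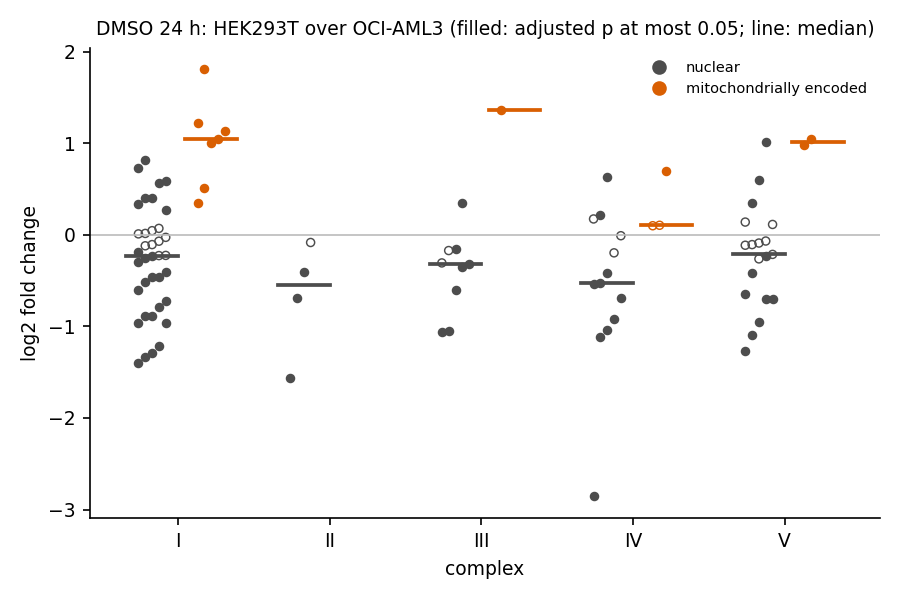
Log2 fold change of each member tested, HEK293T over OCI-AML3, both with DMSO for 24 h, by complex; grey points are nuclear and orange points mitochondrially encoded, filled where the adjusted p is at most 0.05. Mitochondrial members lie between 0.10 and 1.81, and nuclear members spread from -2.86 (NDUFA4L2) to 1.02 (ATP5IF1).

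Per kilobase of transcript, mitochondrial mRNA was the more abundant. In OCI-AML3 with DMSO for 24 h the median level was 594 CPM per kb for the 13 mitochondrial members and 127 CPM per kb for the nuclear members tested, and in HEK293T 1298 and 105 CPM per kb. MT-CO2 led in OCI-AML3 at 3587 ± 679 CPM per kb (SD, n = 3), ahead of MT-CO3 at 2648 ± 500 and MT-CO1 at 2238 ± 487, and neighbours in this order lay within their summed SDs. In HEK293T the order was MT-CO2 at 3855 ± 227, MT-CO1 at 3631 ± 91.6, MT-ATP6 at 2965 ± 56.8 and MT-CO3 at 2835 ± 113, with MT-CO2 and MT-CO1, and MT-ATP6 and MT-CO3, within their summed SDs. MT-ATP8 was the lowest mitochondrial member in both lines, at 89.2 and 175 CPM per kb. Nuclear members were led in OCI-AML3 by ATP5MF at 969 ± 86.8 and UQCRH at 968 ± 141 CPM per kb, which do not differ, followed by ATP5F1B, the catalytic beta subunit, at 794 ± 17.8. After 24 h of tunicamycin the order was UQCRH at 803 ± 140, ATP5F1B at 561 ± 64.2, COX4I1 at 544 ± 109, ATP5MC2 at 430 ± 73.6 and ATP5MF at 424 ± 129, with neighbours from ATP5F1B on within their spread.

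Genes that serve the chain without being members were described from lists, whose counts at 24 h in OCI-AML3 stand beside 27.7% of all genes lower and 23.5% higher. At 24 h in OCI-AML3, 64 of 78 mitochondrial ribosomal protein genes fell and 0 rose, with a median log2 fold change of -0.45; MRPL12, MRPL4 and MRPL27 fell by 1.10, 1.00 and 0.94. Of 18 complex I assembly factors 15 fell and 0 rose, among them ECSIT by 0.79, NDUFAF8 by 0.73 and NDUFAF2 by 0.68. Of 23 complex IV assembly factors 14 fell, SCO2, a copper chaperone, by 0.72, and 1 rose, COX19, at 0.48. Of 14 assembly factors of complexes II, III and V, 8 fell, UQCC2 by 0.89 and BCS1L by 0.78, and SDHAF3 and TTC19 rose, at 0.42 and 0.28. Of 6 further subunits and carriers 4 fell, led by CYC1, cytochrome c1 of complex III, by 0.78, and CYCS, cytochrome c itself, by 0.36.

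The lists of mitochondrial DNA and RNA genes stand beside the same shares, 27.7% lower and 23.5% higher. Of 26 genes of mitochondrial transcription and RNA handling 10 fell and 1 rose: SLIRP, which stabilises mitochondrial mRNA with LRPPRC, fell by 1.21 and TBRG4 by 0.87, and MTERF4 rose, at 0.37. Of 9 genes of mitochondrial DNA maintenance 5 fell, among them TWNK, the helicase, by 0.53, POLG, the polymerase, by 0.50 and SSBP1 by 0.46, and 3 rose, led by RRM2B at 0.71. Among 9 nuclear regulators of respiratory genes PPARGC1B fell by 0.54, ESRRA by 0.38 and PPRC1 by 0.32 and 0 rose. At 4 h the ribosomal list of 78 had 17 lower and 12 higher, near the 18.9% and 18.5% of all genes. The complex IV assembly list of 23 had 9 lower and 4 higher, the RNA handling list of 26 had 8 lower and 0 higher, and the 9 regulators had 3 lower and 2 higher. PPARGC1B fell by 1.32, TRMT10C, part of mitochondrial RNase P, by 0.90, and COX16 by 1.01, while COX19 rose, at 0.92. In HEK293T 17 of 78 ribosomal protein genes and 13 of 26 RNA handling genes fell and 0 of either list rose, where 13.1% of all genes fell and 12.6% rose, the complex I assembly list had 2 lower and 1 higher, and ELAC2, which trims mitochondrial tRNA ends, fell by 0.49.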

How the data were processed

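Poly(A) RNA of 21 libraries was sequenced as paired-end reads. Per the study's methods, the authors ran seqtk on the reads, STAR against GRCh38 for alignment and RSEM with Ensembl 101 for quantification; use of strand is not given in the sources used here. The authors deposited the gene-level expected counts of RSEM without further scaling; 3.54 to 4.22% of a library's values were not whole, and rounding was applied before testing. Every column name matched a sample title. Libraries held 13838480 to 19961819 counts, and their number limits precision.

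A gene was tested if it reached 1 CPM in 8 or more libraries, which 14012 of 60671 did, and 95 of the 103 members passed. Counts were TMM-scaled (normalisation factors 0.891 to 1.15) and fitted over all 7 groups with edgeR's quasi-likelihood test (edgeR 4.0.16, R 4.3.3), with no replicate block and with Benjamini-Hochberg adjustment over all genes tested; a gene was called at an adjusted p of at most 0.05. CPM values in the text are TMM-scaled, shares are of unscaled totals, and fold changes are those of the edgeR fit at its default settings. A prior count of 2 entered only the log2 CPM used to remove length and GC trends and to correlate same-numbered libraries. Coordinates and lengths follow GENCODE 44 and promoter windows RefSeq, both on GRCh38. Tunicamycin was compared with DMSO at each time and line, with interactions of treatment with time and with line. The script was tested on simulated data with 200 changed genes.

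Members and lists were chosen with earlier results of these data known. The text names all mitochondrial members, SDHA to SDHD, the 3 nuclear members with the largest called change in each direction and complex, isoform pairs, the 5 members with the smallest adjusted p in each interaction and at most 3 genes in each direction of a pathway list; NDUFV1, NDUFS7, UQCRC1 and ATP5F1D come from the interactions, and COX5B, COX7A2L and the members just outside the threshold were added after their values were seen. Alternatives were limma voom (limma 3.58.1), DESeq2 1.42.0 as test or as size factors, no TMM, scaling without mitochondrial genes, other filters, a replicate block, removal of length and GC trends (lowess span 0.3), a fit of the compared groups alone, and leaving out each library. Untreated cells as the control, and leaving out both libraries that stand apart, were added after seeing the data. A member that the naming rule selects is not reported here.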

Additional observations from a re-analysis of the deposited data

Results flagged for a closer look

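Interactions between the tunicamycin effect and time in OCI-AML3 differed from 0 in 36 nuclear members that were lower at 24 h than at 4 h and in 3 mitochondrial members that were higher (edgeR's quasi-likelihood test, adjusted p of at most 0.05), where 20.3% of all genes tested were lower and 15.1% higher. The nuclear count was 20 with the compared groups alone and 25 to 55 when each library was left out. The mitochondrial count was 0 without DMSO 4 h replicate 2 and 11 without DMSO 4 h replicate 1. On the log2 scale the named nuclear values were -0.735 for UQCRC1, -1.022 for NDUFS7, -0.833 for ATP5F1D, -0.680 for SDHB and -0.575 for NDUFV1. The mitochondrial values were 0.778 for MT-ND1, 0.875 for MT-ND5 and 0.573 for MT-CYB.

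Interactions between the tunicamycin effect at 24 h and the line differed from 0 in 47 nuclear members, all with a higher log2 fold change in HEK293T, where 15.9% of all genes tested were higher and 10.9% lower. The count was 19 without OCI-AML3 DMSO 24 h replicate 3, and 20 without tunicamycin 24 h replicate 3 of that line or HEK293T DMSO replicate 3. The named values were 1.180 for NDUFS6, 0.763 for NDUFS5, 0.709 for NDUFA6, 0.868 for NDUFS7 and 0.974 for NDUFA7. Both interactions use the DMSO and tunicamycin libraries of OCI-AML3 at 24 h, so they are not independent of each other.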

How the results depend on the processing

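At 24 h in OCI-AML3 the count of nuclear members that fell kept within 63 to 76 when each library was left out, and 63 members fell in every setting tried. Of 107 gene values named and called, 31 lost the call under some alternative and 2 changed sign. The mitochondrial members other than MT-ATP8 had 58349 to 1639541 counts over the 21 libraries, and the spread between the 3 libraries of a group limits what single genes of them can show.

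Some counts moved by over 1.5 times. The 26 nuclear members lower at 4 h were 17 without both libraries that stand apart, and the 9 mitochondrial ones were 0 with untreated cells as the control. In HEK293T the 13 nuclear members lower were 24 without TMM, 20 with no filter beyond 1 count, 27 with length and GC trends removed and 38 with the compared groups alone. Over all genes, 1835 of 14012 were lower in the main fit. In the same order of settings 2264, 1967 of 31899, 2489 and 2856 were lower. The 1 mitochondrial member higher was 0 without TMM, 3 with no filter and 8 with the compared groups alone. Of all genes 1533, 1752 and 2927 were higher in these settings, in place of 1771. The shift in the HEK293T ratio, 0.30, was 0.264 without MT-CO1 and MT-ND4. From 4 h to 24 h of DMSO the 15 nuclear members higher were 25 with DESeq2, 23 with its size factors, 7 without TMM and 48 without both libraries that stand apart, and the 7 mitochondrial members lower were 11 with no filter, 2 against untreated cells and 11 without both libraries. HEK293T against OCI-AML3 had 27 nuclear members lower without TMM in place of 44. The time interaction had 20 nuclear members lower with the compared groups alone in place of 36, and its 3 mitochondrial members higher were 1 with limma voom, 5 with DESeq2 size factors, 6 without TMM, 13 with no filter, 6 with length and GC trends removed and 5 without both libraries. Without TMM the split over all genes was 2131 higher and 4611 lower from 4 h to 24 h of DMSO, in place of 2944 and 3026, and 1516 and 2178 in the line interaction, in place of 2232 and 1529; the medians of all genes moved by -0.119 and -0.112. The cause of these moves was not tested.

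The replicate numbers did not clearly pair the samples: same-numbered libraries of compared groups correlated at -0.139 to 0.199 in their deviations from the group means. In HEK293T each tunicamycin library matched its same-numbered DMSO library best, at 0.0439, 0.0578 and 0.119. In OCI-AML3 that held for replicates 1 and 3 at 4 h and replicate 1 at 24 h, but not for the others. With the replicate block, the time interaction had 6 mitochondrial members higher in place of 3, the counts at 24 h in OCI-AML3 and HEK293T were 73 and 15, and no other count above moved by over 1.5 times.

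When each library was left out, counts ranged from 14 to 32 for nuclear and 0 to 10 for mitochondrial members lower at 4 h, 5 to 7 for nuclear members lower and 0 to 1 for mitochondrial members higher in HEK293T, 5 to 36 and 3 to 11 for nuclear members higher and mitochondrial members lower from 4 h to 24 h of DMSO, 25 to 55 and 0 to 11 for the nuclear and mitochondrial members of the time interaction, and 19 to 54 for the line interaction.

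The values that changed sign were mostly near 0. At 24 h in OCI-AML3 without both libraries that stand apart, MT-ND2 was at -0.015, MT-ND5 -0.033, MT-ND6 -0.100, MT-CYB -0.011, MT-CO3 -0.014 and MT-ATP6 -0.077, and SDHD at 4 h was at 0.054. MT-ND4L was at 0.003 without TMM. MT-ATP8 was at 0.017 with DESeq2, 0.037 with its size factors, 0.093 without TMM, 0.048 with scaling without mitochondrial genes, 0.039 with a filter of 3 libraries and 0.013 with the compared groups alone. In HEK293T MT-CO3 was at -0.006 and MT-ATP8 at -0.008 without TMM, MT-ATP8 at -0.031 with length and GC trends removed, and MT-ATP6 at 0.000 with limma voom and 0.013 with the compared groups alone. For HEK293T over OCI-AML3, MT-CO2 was at -0.073 and MT-CO3 at -0.079 with no filter; SDHB at 0.261, COX6A1 at 0.335, NDUFA4 at 0.148 and ATP5MC3 at 0.230 without TMM; SDHB at 0.084, ATP5PB at -0.134, COX6A1 at 0.420 and COX8A at 0.055 with length and GC trends removed; and COX6A1 at 0.018 with scaling without mitochondrial genes.

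With each library left out, log2 fold changes at 24 h in OCI-AML3 ranged from -0.015 to 0.413 for MT-ND2, -0.284 to 0.047 for MT-ND4, -0.419 to 0.169 for MT-ND4L, -0.033 to 0.338 for MT-ND5, -0.100 to 0.247 for MT-ND6, -0.011 to 0.222 for MT-CYB, -0.014 to 0.272 for MT-CO3, -0.077 to 0.269 for MT-ATP6, -0.346 to 0.207 for MT-ATP8 and -0.198 to 0.003 for SDHD, whose range at 4 h was -0.129 to 0.054. In HEK293T they ranged from -0.077 to 0.045 for MT-ND5, -0.004 to 0.053 for MT-CO3, -0.013 to 0.019 for MT-ATP6 and -0.052 to 0.109 for MT-ATP8, and between the lines from -0.104 to 0.007 for SDHB and -0.057 to 0.119 for COX6A1.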

Other observations

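The mitochondrial ribosomal RNAs, which are not subunits of the chain and were counted among RNA with a poly(A) tail, were followed beside the mRNAs. MT-RNR2, the large rRNA, measured 1033, 964 and 1050 CPM with DMSO and 1605, 1637 and 1682 CPM with tunicamycin in HEK293T, without overlap (edgeR log2 fold change 0.69, adjusted p = 4.1e-08), while MT-RNR1, the small rRNA, was at 0.11 (adjusted p = 0.34). In OCI-AML3 at 24 h MT-RNR2 measured 5803, 6290 and 5923 CPM with DMSO and 6232, 6396 and 6401 CPM with tunicamycin, which overlapped (log2 fold change 0.08, adjusted p = 0.33), and its line interaction was 0.61 (adjusted p = 4.8e-05). MT-RNR1 rose there by 0.29 (adjusted p = 0.0042) and fell at 4 h by 0.25 (adjusted p = 0.017). Although 11 of the 13 mitochondrial mRNAs were higher in HEK293T controls, MT-RNR2 was lower there than in OCI-AML3, at a log2 fold change of -2.56 (adjusted p = 1.1e-19), while MT-RNR1 was at -0.14 (adjusted p = 0.12).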
